A study of Mus musculus with 6 samples.

Results

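The core genes of planar cell polarity (PCP), the system that orients cells within the plane of an epithelium, were followed in RNA of the cochlear duct from mice of the genotypes *Gfi1*+/+ and *Gfi1*cre/+. The 10 genes are *Vangl1*, *Vangl2*, *Celsr1*, *Fzd3*, *Fzd6*, *Ptk7*, *Dvl1*, *Dvl2*, *Dvl3* and *Prickle2*. They were taken by symbol from a table of 14865 genes, all 10 were listed, and all 10 were among the 14455 genes with enough reads to be tested. The tissue was taken at postnatal day 8 from mice labelled as C57BL/6, of a line that the study kept on C57BL/6J, and no agent was given. *Gfi1*cre/+ mice carry 1 copy of *Gfi1* in which the coding sequence was replaced by that of Cre recombinase, so Cre follows the *Gfi1* promoter. The study describes recombination by this allele in hair cells (HCs) and in immune cells of the inner ear, mostly macrophages, which need not express it at the time of sampling. *Gfi1*+/+ mice carry neither the knock-in allele nor Cre. There were 3 libraries per genotype, made in *Gfi1*+/+ from the 2 cochleae of a single mouse and in *Gfi1*cre/+ from 6 cochleae pooled over 3 mice.

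PCP proteins sit at the junctions between neighbouring cells and gather on opposite sides of each cell. In the general scheme, Frizzled receptors (*Fzd3*, *Fzd6*) and the Dishevelled adaptors they recruit (*Dvl1*, *Dvl2*, *Dvl3*) take one side. The transmembrane Van Gogh-like proteins (*Vangl1*, *Vangl2*) with Prickle (*Prickle2*) take the other, and protein position in the cochlea was not measured here. The atypical cadherin encoded by *Celsr1* bridges the junction from both cells, and *Ptk7* encodes a pseudokinase receptor that acts with the core proteins. In the cochlea this system sets the direction in which the V-shaped hair bundles of HCs point and helps the duct to lengthen before birth, and it is best known from mice with mutated *Vangl2* or *Celsr1*, whose bundles are misoriented.

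The deposited values are reads counted on genes divided by 1 factor per library and are called normalized reads here. In order of replicate number, 13603908, 15899307 and 16136022 reads were counted on genes in *Gfi1*+/+, and 19359753, 18859199 and 17939607 in *Gfi1*cre/+. Every *Gfi1*cre/+ library was thus deeper than every *Gfi1*+/+ library, and *Gfi1*+/+ replicate 1 was the shallowest. *Gfi1* had between 147 and 160 normalized reads in the *Gfi1*+/+ libraries and between 130 and 139 in the *Gfi1*cre/+ libraries (log2 fold change -0.18, standard error 0.0975, adjusted p = 0.999 in limma's test). The value counts all exons of the gene, those left in the targeted allele included. The Y-linked genes *Ddx3y*, *Kdm5d*, *Eif2s3y* and *Uty* summed to at most 2.1 normalized reads in *Gfi1*+/+ and to between 794 and 1621 in *Gfi1*cre/+, so that sex and genotype cannot be told apart. The study reads its Y-linked genes as mainly male pups in *Gfi1*cre/+ and mainly female pups in *Gfi1*+/+. *Xist* had between 7338 and 8138 normalized reads in *Gfi1*+/+ and 5359, 4987 and 2301 in the *Gfi1*cre/+ replicates. Markers of HCs, supporting cells and the stria vascularis, the cells that define the cochlear duct, were listed, with 11 of 12 for HCs. The HC marker *Atoh1* was not listed. No listed marker was at 0 in all libraries, which says little, since the study set a minimum of reads for an expressed gene. The libraries differed most in a list of 12 neuronal markers, whose sum in normalized reads was 10017 in *Gfi1*+/+ replicate 1, 3670 in replicate 2 and 2282 in replicate 3, and lay between 1788 and 2646 in *Gfi1*cre/+. *Gfi1*+/+ replicate 1 stood apart, and the fold changes of the core genes, as well as the counts of each gene list, are therefore also given without it.

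No PCP core gene passed the test for a difference between the genotypes. With limma, 0 of the 10 genes passed an adjusted threshold of 0.05, as 4 of all 14455 genes did (0.0277%), and 0 of 10 passed it unadjusted, as 3.04% of all genes did. edgeR and DESeq2 on the recovered reads also called 0 of 10, at either threshold. The adjusted p-value was 0.999 for each of the 10 genes. The estimates were small, with log2 fold changes between -0.11 for *Prickle2* and 0.12 for *Vangl1*. The 95% confidence interval of each gene lay within a 1.5-fold change in either direction. The highest upper bounds were those of *Vangl1*, at 1.28-fold, and *Fzd3*, at 1.26-fold, and the lowest bound was that of *Prickle2*, at 0.822-fold. In RNA of a whole duct, fewer cells of a type and less RNA per cell cannot be told apart. The intervals hold for the whole duct only. They use 1 estimate of spread for both genotypes and take no account of sex or tissue makeup, which differed between libraries. A change confined to HCs, by the study's account a small part of inner ear cells, could be larger.

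**Figure D1:**
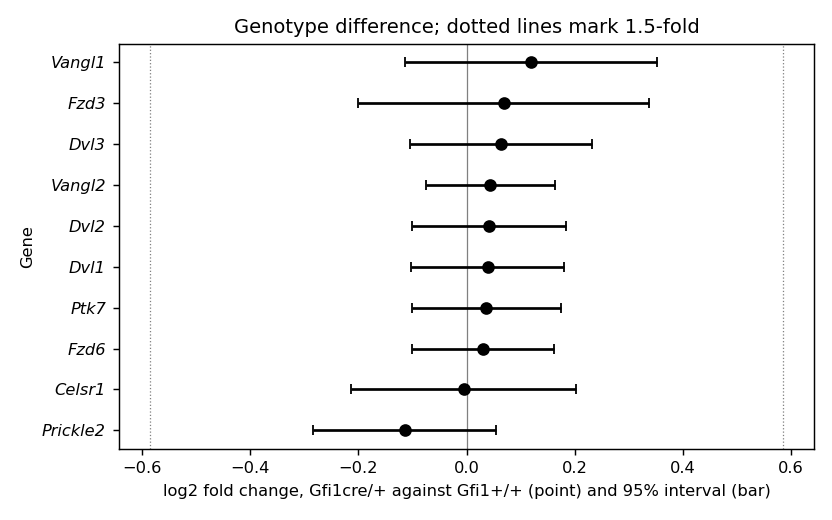
The log2 fold change of each core gene, *Gfi1*cre/+ against *Gfi1*+/+ on the log2(normalized reads + 1) scale, is shown as a point with its 95% confidence interval from limma (3 libraries per genotype). All 10 intervals cross 0 and stay inside the dotted lines at 1.5-fold.

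The genes differed far more from each other than between genotypes. Levels were compared per kb of exon, as normalized reads divided by the length of all annotated exons and averaged over the 6 libraries. *Ptk7* was highest at 553 normalized reads per kb, above 88.5% of all genes tested with a known length. *Dvl1* (318) and *Fzd6* (316) followed, and their ranges over libraries overlapped. *Vangl2* (158) came next, and *Dvl3* (141), *Dvl2* (123), *Vangl1* (122) and *Celsr1* (121) formed a group in which each gene overlapped the next. *Prickle2* (33.4) and *Fzd3* (20.9) were lowest, at percentiles 20.2 and 12.5. Between *Ptk7* and *Dvl1*, *Fzd6* and *Vangl2*, *Vangl2* and *Dvl3*, *Celsr1* and *Prickle2*, and *Prickle2* and *Fzd3* the ranges did not overlap. Measured by the longest transcript instead of all exons, *Fzd6* stood above *Dvl1* and *Dvl3* above *Vangl2*, and the other genes kept their place. The median over all genes was 111 normalized reads per kb, so that 8 of the 10 core genes lay above it.

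**Figure D2:**
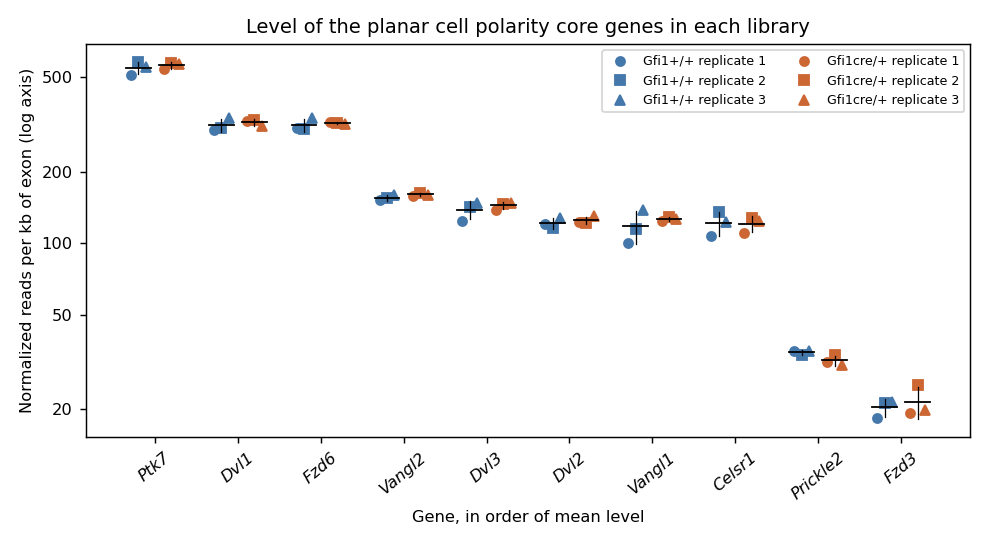
Level of each core gene in normalized reads per kb of exon (log axis), ordered by mean, with 1 point per library and bars for the mean and SD of 3 libraries per genotype. *Ptk7* lies near 553 and *Fzd3* near 20.9, and within each gene the genotypes lie close together.

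Of the Van Gogh-like genes, *Vangl1* (ENSMUSG00000027860, chromosome 3, 102153583 to 102204693, minus strand, GRCm38) had the larger estimated difference. In order of replicate number, as throughout, it had 718, 824 and 988 normalized reads in the *Gfi1*+/+ replicates and 891, 926 and 909 in the *Gfi1*cre/+ replicates. The *Gfi1*cre/+ libraries lay close together and inside the wide range of *Gfi1*+/+. The means were 844 ± 136 and 909 ± 17.3 (SD, n = 3), and the log2 fold change was 0.12 (standard error 0.103, 95% interval -0.11 to 0.35). Without *Gfi1*+/+ replicate 1 it was 0.0095. Without *Gfi1*+/+ replicate 3, the highest library, it was 0.24 with an unadjusted p-value of 0.0064 in limma's test, the one instance in which a core gene passed the unadjusted threshold, but 16.2% of all genes did so in that comparison.

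*Vangl2* (ENSMUSG00000026556, chromosome 1, 172000960 to 172028444, minus strand), the paralogue whose mutation in the Looptail mouse misorients hair bundles, had the smallest SD within genotypes of the core genes. It had 1058, 1083 and 1119 normalized reads in the *Gfi1*+/+ replicates and 1108, 1135 and 1117 in the *Gfi1*cre/+ replicates. The lowest *Gfi1*cre/+ library lay above 2 of the *Gfi1*+/+ libraries and below the third. Its SD within genotypes, 0.0315 on the log2 scale, was smaller than that of all but 2.56% of genes, which were not matched for read number. Its coefficient of variation in *Gfi1*+/+ was 2.84%, where counting error alone gives 3.20%. In *Gfi1*cre/+ it was also below counting error. With 3 libraries per genotype, a spread below counting error cannot show that the gene itself varied less than others. The log2 fold change was 0.04 (standard error 0.0525), and the interval ran from 0.950-fold to 1.12-fold. The log2 fold change was 0.03 without *Gfi1*+/+ replicate 1.

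*Prickle2* (ENSMUSG00000030020, chromosome 6, 92370908 to 92706155, minus strand) encodes the cytoplasmic partner of the Van Gogh-like proteins. It had 305, 292.12 and 303 normalized reads in the *Gfi1*+/+ replicates and 273, 292.05 and 266 in the *Gfi1*cre/+ replicates. It was the only core gene whose genotypes did not overlap, 1 of 10, where 7.52% of all genes tested did not. The gap was 0.07 normalized reads, and a single read counts for 0.870 to 1.23 normalized reads in these libraries, so the separation was less than 1 read wide. The log2 fold change was -0.11 (standard error 0.0746, 95% interval -0.28 to 0.05, unadjusted p = 0.16 in limma's test). It stayed between -0.15 and -0.09 with each library left out, and was -0.10 without *Gfi1*+/+ replicate 1.

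*Celsr1* (ENSMUSG00000016028, chromosome 15, 85898929 to 86033777, minus strand), the cadherin that joins both sides of the junction, showed the smallest difference in level. The *Gfi1*+/+ replicates had 1178, 1482 and 1355 normalized reads and the *Gfi1*cre/+ replicates 1212, 1411 and 1368. The genotypes overlapped over nearly their whole range, and replicate 1 was the lowest library in each. The log2 fold change was -0.0055 (standard error 0.0921), and its direction depended on the libraries, from -0.09 without *Gfi1*+/+ replicate 1 to 0.07 without *Gfi1*+/+ replicate 2.

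*Ptk7* (ENSMUSG00000023972, chromosome 17, 46564471 to 46629504, minus strand), the pseudokinase receptor, had 2755, 3108 and 2954 normalized reads in the *Gfi1*+/+ replicates and 2895, 3078 and 3062 in the *Gfi1*cre/+ replicates. All *Gfi1*cre/+ values lay between the lowest and the highest *Gfi1*+/+ library. The log2 fold change was 0.04 (standard error 0.0608), and it was -0.0092 without *Gfi1*+/+ replicate 1.

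The Frizzled receptors of the pathway differed widely in level and spread. *Fzd6* (ENSMUSG00000022297, chromosome 15, 39006034 to 39038188, plus strand) had 1465, 1450 and 1612 normalized reads in the *Gfi1*+/+ replicates and 1552, 1537 and 1529 in the *Gfi1*cre/+ replicates. The 3 *Gfi1*cre/+ libraries had a coefficient of variation of 0.769%, below the 2.42% that counting error alone gives at this depth. *Fzd3* (ENSMUSG00000007989, chromosome 14, 65192449 to 65262463, minus strand), which also guides growing axons, had 236, 271 and 276 normalized reads in the *Gfi1*+/+ replicates and 247, 325 and 254 in the *Gfi1*cre/+ replicates. *Gfi1*cre/+ replicate 2 stood above the other 5 libraries, and the coefficient of variation in *Gfi1*cre/+ was 15.6% where counting error gives 5.77%. The log2 fold changes were 0.03 (standard error 0.0581) for *Fzd6* and 0.07 (standard error 0.119) for *Fzd3*, and without *Gfi1*+/+ replicate 1 that of *Fzd6* was 0.0095. That of *Fzd3* turned to -0.06 without *Gfi1*cre/+ replicate 2 and to -0.0031 without *Gfi1*+/+ replicate 1.

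Of the Dishevelled adaptors, *Dvl1* (ENSMUSG00000029071, chromosome 4, 155847402 to 155859303, plus strand) was the most abundant. It had 1498, 1521 and 1682 normalized reads in the *Gfi1*+/+ replicates and 1627, 1653 and 1546 in the *Gfi1*cre/+ replicates. *Dvl2* (ENSMUSG00000020888, chromosome 11, 70000595 to 70012301, plus strand) had 758, 728 and 806 in *Gfi1*+/+ and 776, 764 and 817 in *Gfi1*cre/+. In both genes the genotypes overlapped. Of the 6298 exon bases of *Dvl2*, 1151 are shared with *Acadvl* on the opposite strand, and since the strand setting of the counting is not given, reads there cannot be assigned with certainty. *Dvl3* (ENSMUSG00000003233, chromosome 16, 20516982 to 20534010, plus strand) had 797, 913 and 949 in *Gfi1*+/+ and 887, 940 and 946 in *Gfi1*cre/+. Its *Gfi1*+/+ replicate 1 was the lowest library by a wide margin. The log2 fold changes were 0.04 for *Dvl1*, 0.04 for *Dvl2* and 0.06 for *Dvl3*, with standard errors of 0.0623, 0.0628 and 0.0747, and without *Gfi1*+/+ replicate 1 they were 0.0073, 0.04 and -0.01.

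Paralogues of the pathway can stand in for one another, so the balance within each group was compared as a share of its normalized reads per kb. *Vangl1* held 39.9%, 42.6% and 46.3% of the *Vangl* reads in the *Gfi1*+/+ replicates and 44.0%, 44.3% and 44.3% in the *Gfi1*cre/+ replicates. *Dvl1* held 54.7% ± 0.508 of the *Dvl* reads in *Gfi1*+/+ and 54.5% ± 1.51 in *Gfi1*cre/+ (SD, n = 3). *Dvl2* held 21.2% ± 0.816 and 21.1% ± 0.927, and *Dvl3* held 24.1% ± 1.24 and 24.4% ± 0.800. *Fzd3* held 6.11% ± 0.435 and 6.30% ± 0.932 of the reads of *Fzd3* and *Fzd6*. None of the 5 shares differed beyond the spread between libraries (exact permutation test, two-sided, p between 0.7 and 1, adjusted p = 1 over the 5 shares), where the smallest p that 3 libraries against 3 allow is 0.1.

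**Figure D3:**
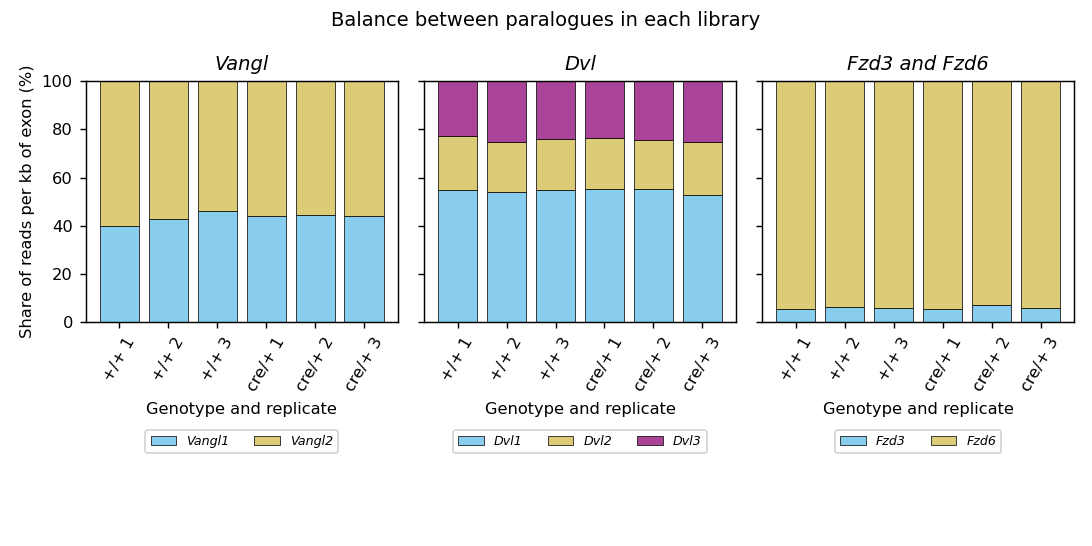
Share (%) of the normalized reads per kb of exon that each paralogue took within the *Vangl*, *Dvl* and *Fzd3* with *Fzd6* groups, 1 stacked bar per library. *Vangl1* runs from 39.9% to 46.3% across *Gfi1*+/+ libraries and stays between 44.0% and 44.3% in *Gfi1*cre/+.

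Of the 10 core genes, 8 had a higher mean log2 level in *Gfi1*cre/+ and 2 (*Prickle2* and *Celsr1*) a lower one, against 49.9% of all genes higher. The median log2 fold change was 0.04 for the core genes and -0.00012 for all genes tested. The size of this excess depended on single libraries. *Gfi1*+/+ replicate 1 was the lowest of the 6 libraries in 7 of the 10 core genes, whereas it was lowest in 23.5% of all genes. The mean deviation of the core genes from their own averages was -0.107, -0.0051 and 0.0637 on the log2 scale in the *Gfi1*+/+ replicates and -0.0280, 0.0676 and 0.0088 in the *Gfi1*cre/+ replicates. Without *Gfi1*+/+ replicate 1, 5 core genes were higher and 5 lower in *Gfi1*cre/+, and the median log2 fold change was 0.0021. Without *Gfi1*+/+ replicate 3 it was 0.08, with 9 higher and 1 lower. Without *Gfi1*cre/+ replicate 2 it was 0.03, with 7 higher and 3 lower.

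**Figure D4:**
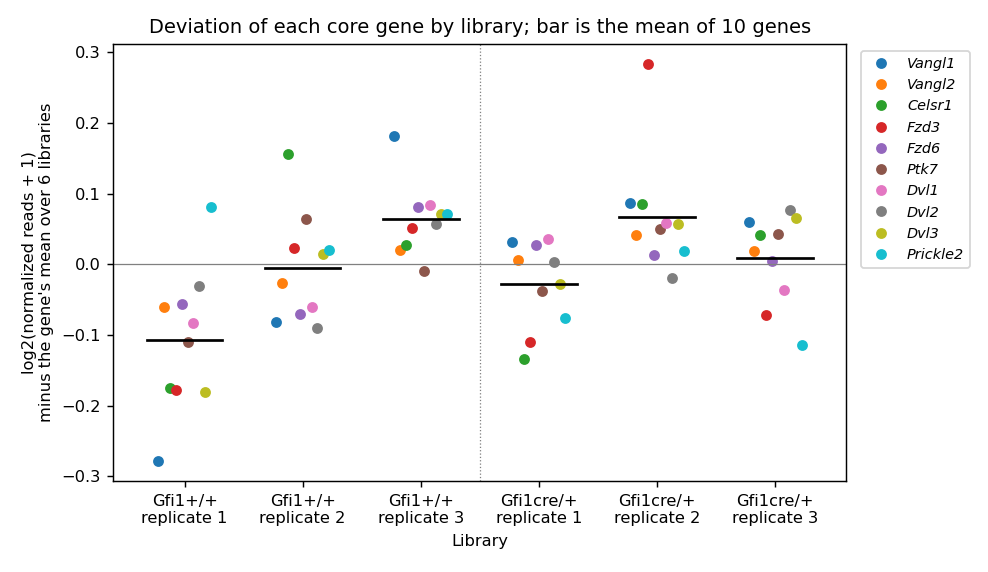
Deviation of each core gene from its own mean over the 6 libraries, on the log2(normalized reads + 1) scale, by library, where the black bar is the mean of the 10 genes. In *Gfi1*+/+ replicate 1 the mean is -0.107, and *Prickle2* is the one gene above 0 there.

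Several cell type markers moved with that library, and their part in the levels of the core genes was not tested. In *Gfi1*+/+ replicate 1 the neuronal sum was the highest of the 6 libraries, as was the sum of 9 glial markers, at 63841 normalized reads where the other *Gfi1*+/+ libraries had 40253 and 52792 and the *Gfi1*cre/+ libraries between 45684 and 54785. The sum of 8 mesenchymal markers was the lowest there, at 180989, where the other libraries had between 203177 and 221332. All 8 mesenchymal markers had a higher mean in *Gfi1*cre/+ (median log2 fold change 0.07), and 7 of 8 did without *Gfi1*+/+ replicate 1 (0.02). Of the glial markers 5 were higher and 4 lower, and 3 and 6 without that library. All 11 neuronal markers tested were lower in *Gfi1*cre/+, with a median log2 fold change of -1.22, and 5 of them had an unadjusted p-value under 0.05, against 3.04% of all genes. Without *Gfi1*+/+ replicate 1, 9 neuronal markers were tested and all 9 were lower, with a median of -0.62. Of these, 1 passed the unadjusted threshold, against 2.09% of all genes in that comparison. Sums of 11 HC markers ran from 10168 to 11585 normalized reads in *Gfi1*+/+ and from 9934 to 10363 in *Gfi1*cre/+, with 9 of 11 genes lower and 1 with an unadjusted p-value under 0.05. Sums of 12 supporting cell markers ran from 105092 to 124029 and from 110072 to 120331, with 5 higher and 7 lower. With *Gfi1*+/+ replicate 1 left out, 2 HC markers were higher and 9 lower, and 5 supporting cell markers were higher and 7 lower. Sums of 7 stria vascularis markers ran from 59182 to 63829 and from 63660 to 65238, with 6 of 7 genes higher, 1 of them with an unadjusted p-value under 0.05, and a median log2 fold change of 0.07 (6 of 7, 0 and 0.04 without *Gfi1*+/+ replicate 1). Sums of 8 macrophage markers ran from 4778 to 5293 and from 4690 to 5121, with 4 higher and 4 lower (6 and 2 without that library). Sums of 8 erythroid markers ran from 29479 to 43835 in *Gfi1*+/+ and from 38339 to 66373 in *Gfi1*cre/+. All 8 had an unadjusted p-value under 0.05 and were higher in *Gfi1*cre/+. Without *Gfi1*+/+ replicate 1, 8 of 8 were higher, with 3 past that threshold, against 2.09% of all genes.

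The spread between libraries was smaller in the pooled genotype. The SD of log2(normalized reads + 1) was larger in *Gfi1*+/+ than in *Gfi1*cre/+ in 8 of the 10 core genes, as in 71.2% of all genes, with medians over the core genes of 0.0890 and 0.0502. The exceptions were *Fzd3* and *Prickle2*, the genes with the fewest reads. In *Vangl1* the coefficient of variation was 16.1% in *Gfi1*+/+ and 1.91% in *Gfi1*cre/+, where counting error gives 3.68% and 3.15%. Within genotypes the median SD was 0.0720 for the core genes and 0.108 for all genes tested. These medians were not matched for read number. Apart from *Fzd3* and *Prickle2*, every core gene lay above the median of all listed genes in each library, which was 463 to 476 normalized reads.

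**Figure D5:**
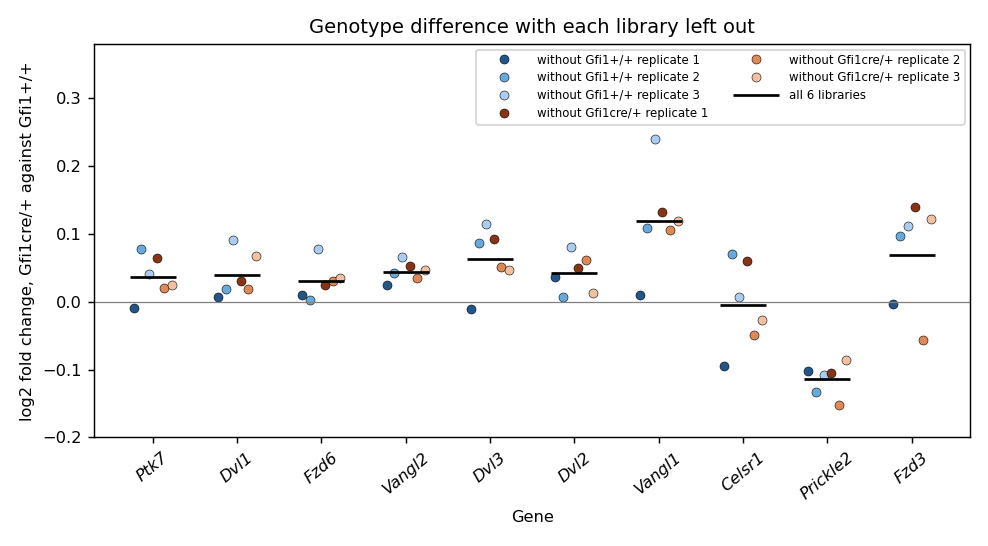
Log2 fold change of each core gene, *Gfi1*cre/+ against *Gfi1*+/+, with all 6 libraries (black line) and with each library left out (points). *Prickle2* stays below 0 throughout, *Vangl1* ranges from 0.0095 to 0.24, and *Celsr1* lies on both sides of 0.

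The wider pathway was followed in 67 other genes, of which 65 were listed and 64 tested. With limma, 0 passed the adjusted threshold, and 2 (3.13% of those tested, against 3.04% of all genes) had an unadjusted p-value under 0.05. *Fzd2*, a Frizzled receptor, had 1247, 1345 and 1267 normalized reads in the *Gfi1*+/+ replicates and 1440, 1361 and 1419 in the *Gfi1*cre/+ replicates (log2 fold change 0.13, standard error 0.0559, unadjusted p = 0.0458, adjusted p = 0.999). *Insc*, an adaptor at the apical surface of HCs that acts with *Gpsm2*, had 367, 396 and 421 in *Gfi1*+/+ and 426, 452 and 458 in *Gfi1*cre/+ (log2 fold change 0.18, standard error 0.0747, unadjusted p = 0.0426, adjusted p = 0.999). In both genes every *Gfi1*cre/+ library lay above every *Gfi1*+/+ library. Without *Gfi1*+/+ replicate 1 neither gene passed the unadjusted threshold, with log2 fold changes of 0.11 for *Fzd2* and 0.12 for *Insc*. In all, the genotypes did not overlap in 8 of the 64 genes, or 12.5%, against 7.52% of all genes.

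Of 9 other homologues of core genes, 8 were tested, 4 were higher and 4 lower, and *Fzd7* (560 normalized reads per kb) and *Fzd1* (393) had the highest levels, both above *Fzd6*. Of 12 non-canonical Wnt ligands and co-receptors, all were tested, 9 were higher and 3 lower, and none passed the unadjusted threshold. With *Gfi1*+/+ replicate 1 left out, 4 homologues were higher and 4 lower, and 9 genes of the Wnt list were higher and 3 lower. The highest levels in that list were those of *Cthrc1*, a secreted cofactor of Wnt signalling (1621 normalized reads per kb), and *Wnt5a*, a ligand of PCP signalling (930). *Wnt5a* had 6673, 6933 and 7799 normalized reads in the *Gfi1*+/+ replicates and 7320, 7275 and 7661 in the *Gfi1*cre/+ replicates, which overlapped.

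Regulators of the core proteins, with 11 of 12 genes tested, were higher in 7 and lower in 4. *Gipc1* (977 normalized reads per kb), an adaptor that binds Van Gogh-like proteins, and the kinase gene *Csnk1d* (764) had the highest levels. Of 13 effectors downstream of the core proteins, 12 were tested, with 3 higher and 9 lower and a median log2 fold change of -0.05. The small GTPase genes *Cdc42* (2263 normalized reads per kb) and *Rac1* (856) were the most abundant of them. None of the genes of both lists passed the unadjusted threshold. Without *Gfi1*+/+ replicate 1, 5 regulators were higher and 6 lower, and 4 effectors were higher and 8 lower. Of these regulators, *Dact1*, which encodes a Dishevelled-binding protein and is named after its value was seen, passed the unadjusted threshold (log2 fold change -0.35, unadjusted p = 0.041 with limma). It was 1 of 11 regulators tested, where 2.09% of all genes passed in that comparison.

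The Fat and Dachsous system, which acts in tissue polarity beside the core genes, was followed in the cadherin genes *Fat1*, *Fat3*, *Fat4*, *Dchs1* and *Dchs2* and in *Fjx1*, a homologue of the kinase gene four-jointed. All 6 had a higher mean in *Gfi1*cre/+, by log2 fold changes of 0.02 to 0.14, and none passed the unadjusted threshold. With *Gfi1*+/+ replicate 1 left out, 3 were higher and 3 lower. *Fat1* (327 normalized reads per kb) and *Dchs1* (173) had the highest levels. Of 15 genes of the intrinsic polarity machinery and basal body of HCs, 8 were higher and 7 lower, with a median log2 fold change of 0.0073 (9 and 6, and 0.0075, without *Gfi1*+/+ replicate 1). The G protein subunit genes *Gnai2* (1850 normalized reads per kb) and *Gnai3* (647), which help to position the hair bundle, were the most abundant there. *Gnai2* had 6535, 7022 and 7097 normalized reads in *Gfi1*+/+ and 6922, 7086 and 7286 in *Gfi1*cre/+.

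Some other genes followed the mean pattern of the core genes over the libraries, and the core genes did not all follow it alike. Over the 45 pairs of core genes, Pearson r ran from -0.40 (*Dvl2* with *Prickle2*) to 0.94, with a median of 0.55. The other genes most like the mean profile of the 10 genes over the 6 libraries were *Arhgap21* (Pearson r = 0.997), *Dtnb* (0.996), *Map4k4* (0.995), *Abcc9* (0.992) and *Uqcrc1* (0.992). They were picked as the highest of 14445 genes, and how many would reach such r by chance over 6 libraries was not tested. Of 14445 other genes, 406 had r above 0.9 with the mean profile, and the cause was not tested.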

How the data were processed

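RNA of cochlear ducts was sequenced in 3 *Gfi1*+/+ and 3 *Gfi1*cre/+ libraries. The authors aligned reads to mm10 with TopHat and counted uniquely mapped reads on genes with HTSeq. Tool versions, annotation and strand setting are not given in the sources used here. The deposited signal per gene is described as quantile-normalized, but the columns do not share their quantiles, and 100% of the values in each column were within 0.1 read of a whole number of reads divided by 1 factor per library. The values were used as deposited. Each column was assigned to its sample through the genotype and number in its name.

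A gene entered the test if any library reached 40 normalized reads (14455 of 14865), and limma was used (version 3.58.1, R 4.3.3) on log2(value + 1), with eBayes and a trend, genotype as the only term, two-sided, Benjamini-Hochberg adjusted over all genes tested. Exon lengths are the union of exons in GENCODE M21 (GRCm38), to which 14791 of the 14865 gene identifiers matched. Paralogue shares were compared by an exact permutation test over libraries, with adjustment over the shares. Alternatives were other pseudocounts and minima, other variance models and normalizations, the replicate number as a block, count models of the recovered reads by DESeq2 (version 1.42.0) and edgeR (version 4.0.16), other lengths, and each library left out. The limma step was tested on simulated counts, with planted changes larger than any estimate of a core gene and no differences in tissue makeup. That test does not bear on changes as small as those estimated here. Between 191 and 3467 reads were counted per core gene and library.

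The members and lists were chosen with earlier results of these data known. Named are all core genes, *Gfi1*, from each other list the genes with an unadjusted p-value under 0.05 (at most 5) and the 2 highest per kb of exon, and the 5 genes whose pattern over libraries was most like the mean of the core genes.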

Additional observations from a re-analysis of the deposited data

How the results depend on the processing

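No core gene passed an adjusted p-value of 0.05 in limma, under any of the 19 alternatives, edgeR and DESeq2 included. At an unadjusted p-value under 0.05 there were between 0 and 1 core genes with a library left out (*Vangl1*, without *Gfi1*+/+ replicate 3) and 0 under the other alternatives. Of 190 fold changes of a core gene under an alternative, 182 kept their direction. Alternatives that change only the minimum or the variance estimate, and the replicate block, left the fold change as it was and could not turn it. Of the 8 that turned, 1 was that of *Celsr1* with median centring (0.0034), and the others came with a library left out. With each library left out, the log2 fold change ran from -0.094 to 0.071 for *Celsr1*, from -0.056 to 0.14 for *Fzd3*, from -0.0092 to 0.078 for *Ptk7* and from -0.011 to 0.11 for *Dvl3*. The paralogue shares turned direction only with libraries left out, where the difference ran from -0.274 to 2.94 percentage points for *Vangl1*, from -0.726 to 0.627 for *Dvl1*, from -0.543 to 0.410 for *Dvl2*, from -0.343 to 0.899 for *Dvl3* and from -0.347 to 0.511 for *Fzd3*. Over all genes, 4 passed the adjusted threshold, against 10 in DESeq2 and between 0 and 48 with a library left out, and 439 passed the unadjusted threshold, against 1666 with array weights and between 212 and 2335 with a library left out. The cause was not tested.

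No sign was seen that replicate numbers pair the libraries. Same-numbered libraries deviated from their genotype means with correlations of -0.09, 0.11 and -0.03, and *Gfi1*+/+ replicate 1 correlated best with *Gfi1*cre/+ replicate 3 (0.15). With 3 libraries per genotype, such correlations cannot show that the libraries were unpaired. With the replicate block, 4 genes passed the adjusted and 462 the unadjusted threshold, none of them a core gene. Leaving out a library leaves a genotype with 2 libraries. Depth limits *Fzd3* and *Prickle2* most. The coefficients of variation given for counting error cover that error only, whereas the confidence intervals from limma include the spread between libraries.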
